A study of Mus musculus with 3 samples.

Results

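The expression of 10 genes that make or remove reactive oxygen species was followed across the cell classes of the mouse heart after myocardial infarction. The genes were Nox4, Cybb, Cyba, Sod2, Sod3, Cat, Gpx3, Hmox1, Txnrd1 and Nfe2l2, taken by name from the feature list, where all 10 were found among 32285 genes. Heart tissue had been collected 2 weeks after surgery, and its nuclei were sequenced in 3 libraries. The MI-DAPA library came from infarcted mice given dapagliflozin, which blocks the renal glucose transporter SGLT2 and is prescribed in diabetes and heart failure. The MI-NS library came from infarcted mice and the Sham-NS library from sham-operated mice, both with a treatment labelled NS, which the labels do not expand. Strain, age, dose, the region of the heart and the number of mice pooled per library are not given in the sources used here. Each group is 1 library, so the differences below have no replicate check and carry no test. The intervals in the text are 95% intervals for counting error only.

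Superoxide is made on purpose by the NADPH oxidases, membrane enzymes that pass electrons from NADPH to oxygen, and by accident in mitochondria and other oxidases. Superoxide dismutases turn it into hydrogen peroxide, which catalase, the glutathione peroxidases and the thioredoxin system then remove. The transcription factor NRF2, encoded by Nfe2l2, switches on many antioxidant genes through the antioxidant response element (ARE), and Hmox1 and Txnrd1 are textbook targets. In the infarcted heart, cardiac muscle, scar-forming fibroblasts and phagocytes are all known sources of oxidants.

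The libraries held 8871086 (MI-DAPA), 10113430 (MI-NS) and 13873275 (Sham-NS) counts of unique molecular identifiers (UMIs), and 5372 nuclei of MI-DAPA, 7065 of MI-NS and 8296 of Sham-NS passed the filters. A UMI marks 1 captured RNA molecule. The median nucleus of MI-DAPA held 831 UMIs, that of MI-NS 851 and that of Sham-NS 790, and the median mitochondrial share was 2.42% in MI-DAPA, 1.48% in MI-NS and 3.32% in Sham-NS. Pairs of libraries had 13 to 20 barcodes in common and no barcode was in all 3 libraries. Clusters were named from marker genes, written as "-like", after the 10 genes had been kept out of the clustering. Levels are UMIs of a gene per 1000000 UMIs of a class (CPM), given for the 9 classes with at least 50 nuclei in each library. One of them, the cycling nuclei (102 in MI-DAPA, 107 in MI-NS and 55 in Sham-NS), was named from cell-division genes and can hold several cell types. The largest were the cardiomyocyte-like (1442, 983 and 1625 nuclei in MI-DAPA, MI-NS and Sham-NS), fibroblast-like (1355, 2026 and 1774), vascular endothelial-like (971, 958 and 1730) and macrophage-like (364, 845 and 756) classes. All 10 cardiomyocyte markers were raised in each of the 3 cardiomyocyte-like clusters kept, and 6 to 12 of the 12 fibroblast markers in the 3 fibroblast-like clusters.

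In the GRCm38 annotation, Nox4 spans chr7:87246096-87398710 on the plus strand, Gpx3 chr11:54902453-54910377 on the plus strand, Cat chr2:103453849-103485160 on the minus strand and Nfe2l2 chr2:75675513-75704641 on the minus strand. Promoter sequences were available in RefSeq (GRCm38.p6) for 8 of the 10 genes, all but Sod3 and Hmox1, as windows running from 250 bases before to 50 bases after a start site. Both strands were searched for the core of the ARE, TGACNNNGC, and for the GC box GGGCGG. The ARE core lay in 12.4% of all 32851 promoter windows and, among the 8 genes, in the window of Nfe2l2 and in 1 of the 3 windows listed for Txnrd1. The GC box lay in 35.7% of windows and in at least 1 window of 7 of the 8 genes, all but Cybb. For Txnrd1 it lay in 1 of the 3 windows, the one with the ARE core. The windows below are those with an ARE core and those of Nox4 and Gpx3, the measurable genes with the largest ratios between libraries. Capitals mark the matches to either motif, which did not overlap each other. Each match is a run of letters and not a measured binding site.
Nfe2l2, chr2:75704614-75704913, minus strand: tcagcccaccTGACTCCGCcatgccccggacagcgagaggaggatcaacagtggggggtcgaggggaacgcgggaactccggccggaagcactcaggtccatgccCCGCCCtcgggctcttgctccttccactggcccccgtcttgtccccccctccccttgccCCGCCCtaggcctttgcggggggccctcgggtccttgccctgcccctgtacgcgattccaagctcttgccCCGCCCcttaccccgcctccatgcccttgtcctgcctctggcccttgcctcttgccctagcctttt
Txnrd1, chr10:82858956-82859255, plus strand: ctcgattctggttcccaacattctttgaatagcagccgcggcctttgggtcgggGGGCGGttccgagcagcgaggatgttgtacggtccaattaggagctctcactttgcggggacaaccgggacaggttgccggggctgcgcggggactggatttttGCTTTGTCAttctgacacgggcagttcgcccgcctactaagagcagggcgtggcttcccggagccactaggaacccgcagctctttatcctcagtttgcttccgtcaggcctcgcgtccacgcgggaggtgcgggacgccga
Nox4, chr7:87246399-87246698, plus strand: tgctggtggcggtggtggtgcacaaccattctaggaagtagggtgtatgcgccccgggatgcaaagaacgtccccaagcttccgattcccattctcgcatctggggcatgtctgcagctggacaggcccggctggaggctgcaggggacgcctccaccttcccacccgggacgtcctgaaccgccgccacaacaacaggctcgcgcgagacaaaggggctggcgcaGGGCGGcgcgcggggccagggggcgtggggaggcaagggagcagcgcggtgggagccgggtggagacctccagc
Gpx3, chr11:54902604-54902903, plus strand: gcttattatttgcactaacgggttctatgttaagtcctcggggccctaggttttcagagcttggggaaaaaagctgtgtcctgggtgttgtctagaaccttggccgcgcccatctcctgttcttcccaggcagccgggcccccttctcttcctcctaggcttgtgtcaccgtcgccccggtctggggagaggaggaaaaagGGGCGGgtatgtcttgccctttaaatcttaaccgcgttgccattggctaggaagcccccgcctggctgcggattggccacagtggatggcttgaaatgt

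The genes fell into different cell classes, as the plot of levels per class and library shows. Nox4, an oxidase that releases mostly hydrogen peroxide, was highest in fibroblast-like nuclei at 233 CPM (219 to 248) over the 3 libraries together, followed by the lymphatic endothelial-like class at 99.9 CPM (65.9 to 145). In Sham-NS alone the order of this pair turned, with 84.5 CPM from 7 UMIs in lymphatic endothelial-like and 76.8 CPM in fibroblast-like nuclei. Cybb, the catalytic subunit of the phagocyte oxidase also known as NOX2, stood at 200.5 CPM (178 to 226) in macrophage-like nuclei and at 1.32 CPM (0.70 to 2.25) in cardiomyocyte-like nuclei. Cyba, the p22phox subunit that both oxidases need, was also highest in the macrophage-like class, at 171 CPM (150 to 194). The next Cyba levels, in cycling nuclei and the lymphatic endothelial-, endocardial- and vascular endothelial-like classes, had overlapping intervals. Cat was highest in cardiomyocyte-like nuclei over the 3 libraries together, but not in MI-DAPA, where vascular endothelial-like nuclei had 44.5 CPM against 44.3 CPM in cardiomyocyte-like nuclei, and endocardial-like nuclei had 98.3 CPM from 7 UMIs. For Nfe2l2 the cardiomyocyte-like level of 125 CPM and the macrophage-like level of 122 CPM had overlapping intervals, and their order changed with the library. The macrophage-like level was the higher of the pair in MI-DAPA (156 against 111 CPM) and MI-NS (116 against 97.1 CPM), and the cardiomyocyte-like level in Sham-NS (152 against 116 CPM). Sod2, the mitochondrial dismutase, was at 45.3 CPM (41.2 to 49.7) in cardiomyocyte-like nuclei and at 44.4 CPM (23.0 to 77.6) in lymphatic endothelial-like nuclei, so these neighbours were not separated. Gpx3, the secreted glutathione peroxidase, led in fibroblast-like nuclei at 102 CPM (92.8 to 112). Txnrd1, the cytosolic thioredoxin reductase, showed no clear order, with all 9 classes between 33.3 and 48.1 CPM. Sod3 and Hmox1 were sparse, with 154 and 44 UMIs in all named classes. Levels in smooth muscle-like nuclei are the least certain, since 6 cardiomyocyte markers summed to 60100 CPM there in MI-DAPA, 5289 CPM in MI-NS and 23010 CPM in Sham-NS, and their part in the levels was not tested.

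**Figure D1:**
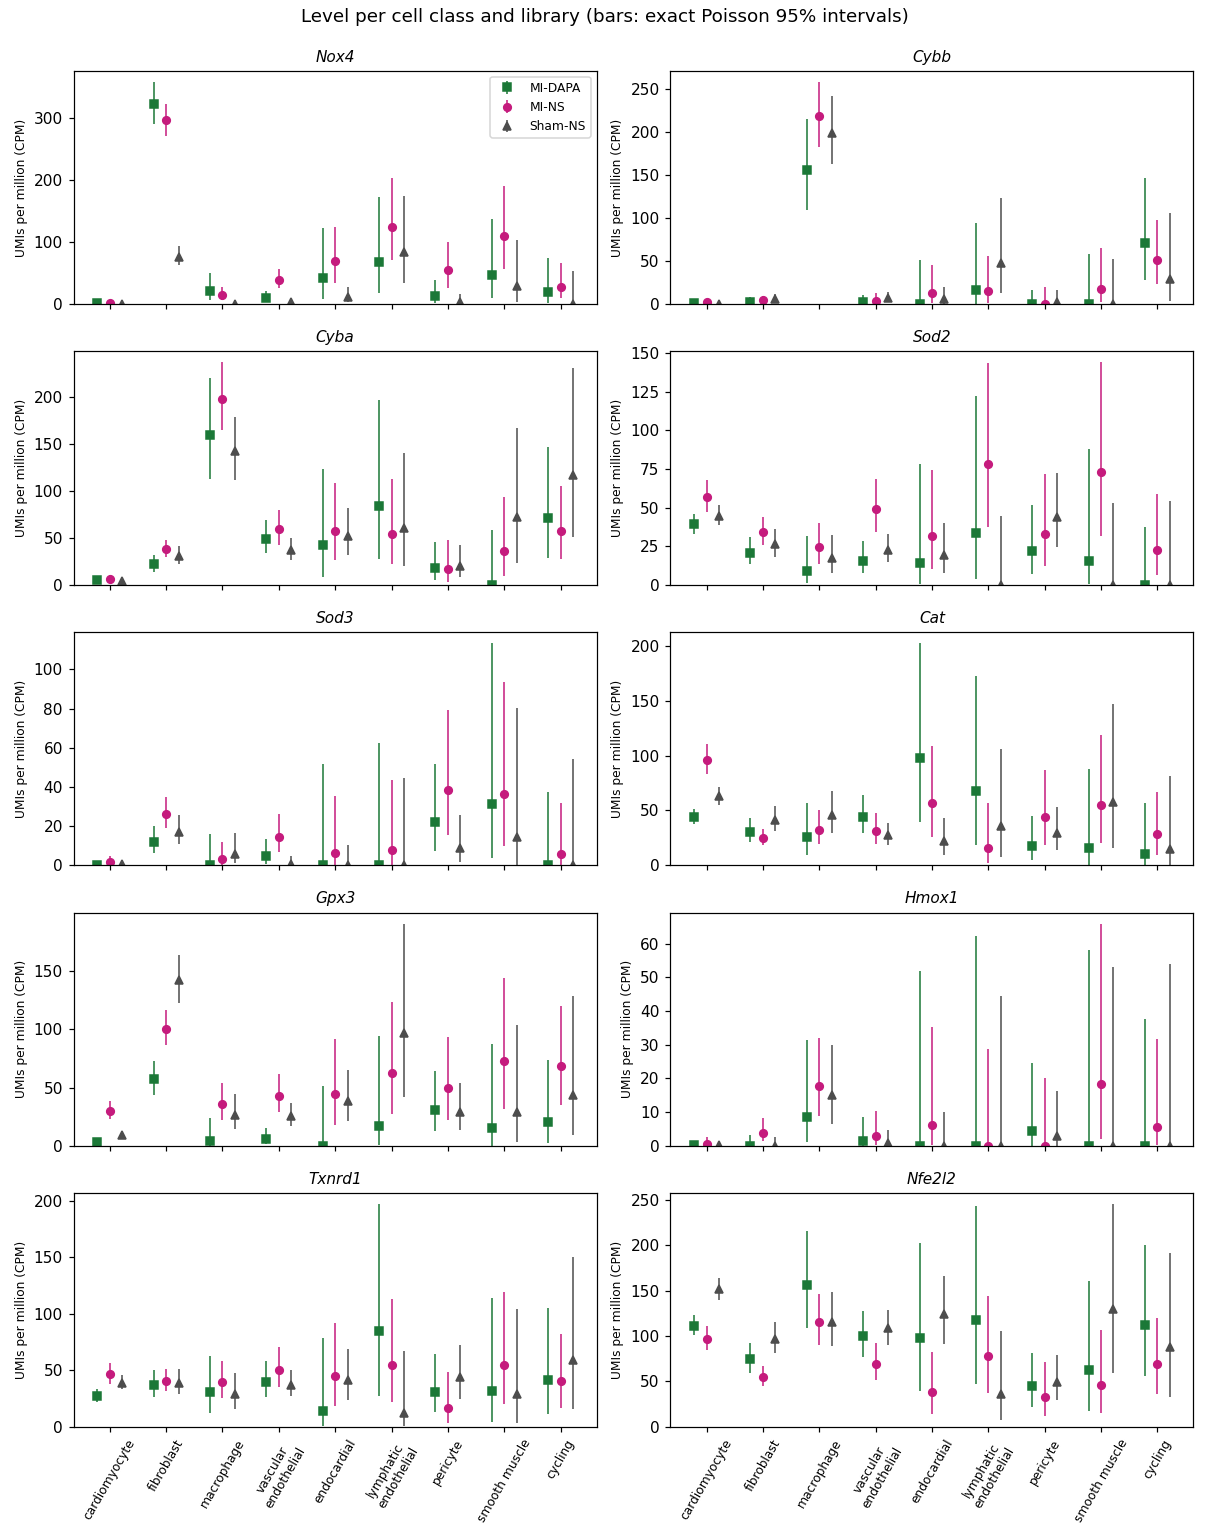
Level of each of the 10 genes in CPM (vertical axis, linear, starting at 0) in the 9 cell classes (horizontal axis, rebuilt from marker genes), with MI-DAPA as squares, MI-NS as circles and Sham-NS as triangles. Bars are exact Poisson intervals of counting error; Nox4 stands out in fibroblast-like nuclei of MI-DAPA and MI-NS, Cybb and Cyba in macrophage-like nuclei.

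Some classes were seen only in MI-NS in numbers that allow a level. Adipocyte-like nuclei of MI-NS had the highest Cat level of any class there, 161 CPM (109 to 230) from 30 UMIs in 89 nuclei. Mesothelial-like nuclei of MI-NS, which carry markers of the heart's outer lining, held Gpx3 at 144 CPM (117 to 175) from 101 UMIs in 473 nuclei. These classes had 1 and 15 nuclei in MI-DAPA and 2 and 14 nuclei in Sham-NS, so no comparison was made for them. The mesothelial-like name depended on the clustering. At a finer resolution of 2.0, only 226 nuclei of MI-NS were named mesothelial. A cluster with Col6a5 and Col1a2 among its leading genes, with 257 nuclei of MI-NS, was named fibroblast there. The part of each in this Gpx3 level was not tested.

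For comparisons a gene counted as measurable if the libraries compared held 50 or more of its UMIs together, and as higher or lower from a 2-fold difference. In cardiomyocyte-like nuclei, 1 of 5 measurable genes (Gpx3) was higher in MI-NS and none was lower than in Sham-NS, where 9.64% of all 8306 measurable genes passed the 2-fold mark either way. In MI-DAPA against MI-NS, 2 of 5 were lower there (Cat and Gpx3), against 5.4% of 8132 genes. In fibroblast-like nuclei, 1 of 8 (Nox4) was higher in MI-NS against Sham-NS, with a background of 12.9% of 8401 genes. There, 1 of 8 was lower in MI-DAPA than in MI-NS (Sod3), against 4.24% of 8183 genes. In vascular endothelial-like nuclei, 1 of 6 (Sod2) was higher in MI-NS against Sham-NS, with a background of 8.74% of 6224 genes, and 0 of 4 passed in MI-DAPA against MI-NS, where 4.29% of 5244 genes did. In macrophage-like nuclei 0 of 3 passed in MI-NS against Sham-NS, where 7.42% of 4705 genes did, and 0 of 3 in MI-DAPA against MI-NS, where 5.51% of 3760 genes did. With so few genes per class, 1 call is not far from these background shares. Both comparisons use the same MI-NS library, so a value high in MI-NS raises the first ratio and lowers the second.

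The scaling changed the split of higher and lower calls over all genes. Of those past 2-fold in cardiomyocyte-like nuclei, 77.5% were higher in MI-NS against Sham-NS and 8.43% higher in MI-DAPA against MI-NS, but 49.6% and 40.2% with trimmed-mean scaling (TMM). In vascular endothelial-like nuclei the shares were 71.5% and 15.6%, but 43.7% and 36.9% with TMM, and in macrophage-like nuclei the first was 72.2%, but 57.7% with TMM. TMM shifted the median of all genes by -0.23 and 0.26 on the log2 scale in cardiomyocyte-like nuclei and by -0.22 and 0.13 in vascular endothelial-like nuclei. The counts of classes in which a gene was above or below, given below for Nox4, Sod2, Sod3, Gpx3 and Nfe2l2, were the same with TMM.

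**Figure D2:**
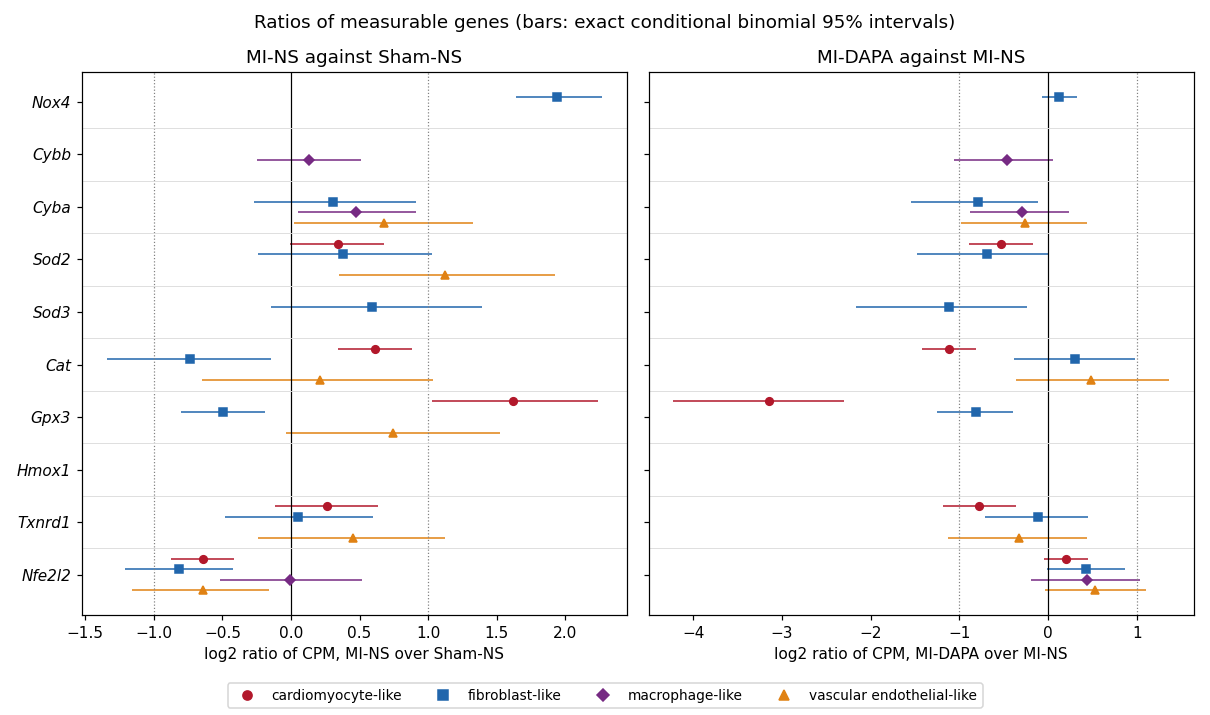
Log2 ratios of CPM (horizontal axes) for the measurable genes (rows) in 4 cell classes, with MI-NS over Sham-NS in the left panel and MI-DAPA over MI-NS in the right panel. Bars are exact conditional binomial intervals of counting error and dotted lines mark a 2-fold difference; Nox4 in fibroblast-like nuclei reaches 1.94 on the left and Gpx3 in cardiomyocyte-like nuclei -3.15 on the right, while Hmox1 was not measurable.

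Among the 3 oxidase genes, Nox4 had the largest measurable ratio of MI-NS over Sham-NS, and its level was higher in MI-NS in 9 of 9 classes. Nox4 was measurable only in 1 of them, the fibroblast-like class, and the interval of its ratio lay above 0 in 5 of the 9. It had 323 CPM in MI-DAPA, 297 CPM in MI-NS and 76.8 CPM in Sham-NS fibroblast-like nuclei, from 357, 522 and 103 UMIs. Both infarct libraries thus stood well above the sham library and close to each other. The log2 ratio was 1.94 (1.64 to 2.27) for MI-NS over Sham-NS, 0.12 (-0.08 to 0.32) for MI-DAPA over MI-NS and 2.07 (1.75 to 2.40) for MI-DAPA over Sham-NS. In nuclei passing a stricter filter the first was 1.17 and the second 0.58.

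The fibroblast-like class was made of different clusters in the 3 libraries, and the Nox4 level differed between the clusters. The part of the cluster make-up in the class level was not tested. A cluster with Comp, Ltbp2 and Thbs1 among its leading genes held 491 nuclei of MI-DAPA, 1322 of MI-NS and 14 of Sham-NS, and a cluster led by Dpep1 held 226, 40 and 1648. A further cluster, with Vcan and Pi16 among its leading genes, held 638, 664 and 112. In the Comp-led cluster, Nox4 was at 652 CPM in MI-DAPA and 391 CPM in MI-NS, from 275 and 457 UMIs. The ratio inside this cluster was 0.74 (0.52 to 0.96), although the whole class differed little between these libraries. In the Vcan-led cluster it was at 131 CPM in MI-DAPA, 112 CPM in MI-NS and 126 CPM in Sham-NS, with wide overlap. In the Dpep1-led cluster it was at 79.1 CPM in MI-DAPA and 71.0 CPM in Sham-NS. Without the Comp-led cluster, a split added after the data had been seen, the class ratio of MI-NS over Sham-NS was 0.55. Nox4 was itself among the 10 leading genes of the Comp-led cluster, although it had no part in the clustering.

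**Figure D3:**
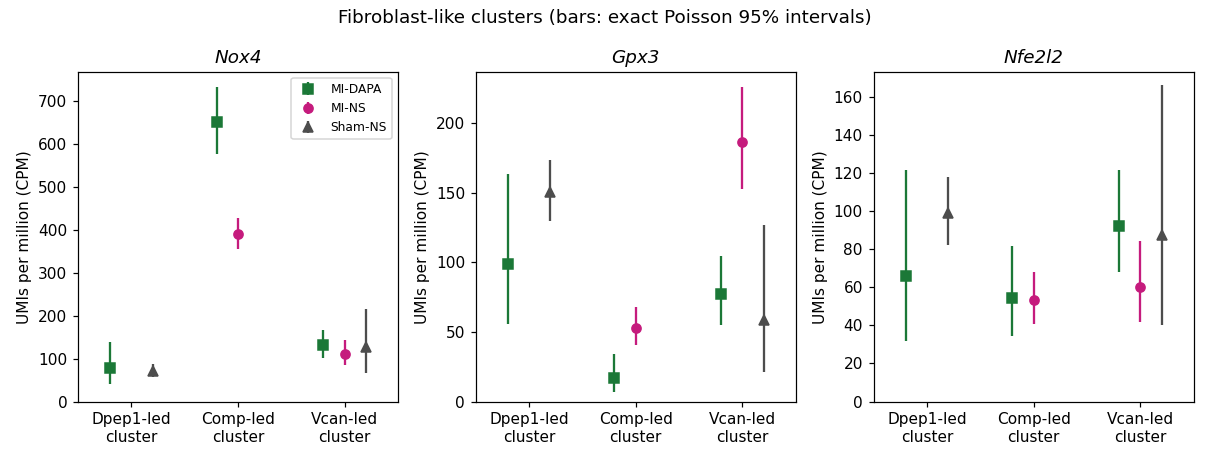
Levels of Nox4, Gpx3 and Nfe2l2 in CPM (vertical axes, linear, starting at 0) in the 3 fibroblast-like clusters (horizontal axes), with MI-DAPA as squares, MI-NS as circles and Sham-NS as triangles and exact Poisson intervals of counting error. A library with under 50 nuclei in a cluster has no point; in the Comp-led cluster Nox4 is at 652 CPM in MI-DAPA and 391 CPM in MI-NS.

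In vascular endothelial-, macrophage- and cardiomyocyte-like nuclei Nox4 rested on 27 UMIs or fewer per library. Vascular endothelial-like nuclei had 10.7 CPM in MI-DAPA, 38.9 CPM in MI-NS and 3.44 CPM in Sham-NS, from 7, 27 and 4 UMIs. In the same nuclei the summed level of 5 fibroblast markers (Col1a1, Col1a2, Col3a1, Dcn and Pdgfra) was 244 CPM in MI-DAPA, 1121 CPM in MI-NS and 141 CPM in Sham-NS, with none of the 5 at 0. The fibroblast RNA and Nox4 were thus highest in the same library, and the part of one in the other was not tested. These markers were also highest in MI-NS in each of the other classes, such as endocardial-like nuclei, with 2739 CPM in MI-NS and 616 CPM in Sham-NS. In cardiomyocyte-like nuclei Nox4 stayed at or below 1.84 CPM in each library. In macrophage-like nuclei of Sham-NS it had 0 UMIs, which allows up to 5.70 CPM.

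The phagocyte oxidase differed less between libraries. Cybb in macrophage-like nuclei was at 156 CPM (109 to 216) in MI-DAPA, 218 CPM (183 to 258) in MI-NS and 199.5 CPM (163 to 241) in Sham-NS. The order runs from MI-NS to MI-DAPA, but all 3 intervals overlap. The log2 ratio was 0.13 (-0.25 to 0.51) for MI-NS over Sham-NS and -0.47 (-1.06 to 0.06) for MI-DAPA over MI-NS. Neither difference was detectable at this depth, and the second turned to 0.36 in nuclei thinned to 1000 UMIs and reached -1.32 when each nucleus was classed by marker level. Thinning kept only nuclei with at least 1000 UMIs, which left 12 macrophage-like nuclei of MI-DAPA, 90 of MI-NS and 54 of Sham-NS. The bounds of the macrophage-like class depended on the clustering. At resolution 2.0 it held 335 nuclei of MI-DAPA, 711 of MI-NS and 728 of Sham-NS. A cluster with Ccr2, Clec9a and H2-Ab1 among its leading genes, of 33, 139 and 40 nuclei, was named dendritic there. The part of such nuclei in the class levels was not tested. In the main clustering the macrophage-like class was made of different subclusters in the 3 libraries. A subcluster with Gpnmb, Marco and Lgals3 among its leading genes held 175 nuclei of MI-DAPA, 413 of MI-NS and 144 of Sham-NS, and one with Ndufa5 and Per2 held 106, 59 and 314. The genes Mhrt and Itgb1bp2, known from heart muscle, were also among the leading genes of the second. A subcluster of 66 nuclei was led by matrix genes such as Comp, Col3a1 and Col1a1 and is not described as macrophage-like. Without it, an alternative added after the data had been seen, the class ratios were 0.17 and -0.55 for Cybb and 0.48 and -0.24 for Cyba. In the other 4 subclusters of at least 50 nuclei, Cybb lay between 172.5 CPM (130 to 225) and 238 CPM (197 to 285) over the 3 libraries together. In the Gpnmb-led subcluster Cybb was at 166 CPM in MI-DAPA, 264 CPM in MI-NS and 241 CPM in Sham-NS. In the subcluster with C6, Ccl8 and Clec10a it was at 175 CPM in MI-NS and 196 CPM in Sham-NS.

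Cyba in macrophage-like nuclei was at 160 CPM in MI-DAPA, 199 CPM in MI-NS and 142 CPM in Sham-NS. MI-NS was the highest of the 3 libraries, with a ratio over Sham-NS of 0.48 (0.05 to 0.91), under 2-fold. Inside the subclusters the order was not the same throughout. In the Gpnmb-led one Cyba was at 165.5 CPM in MI-DAPA, 177 CPM in MI-NS and 201 CPM in Sham-NS, with a ratio of MI-NS over Sham-NS of -0.21 (-0.96 to 0.64). In the Ndufa5-led one it was at 148 CPM in MI-DAPA, 176 CPM in MI-NS and 94.5 CPM in Sham-NS, the first 2 from 10 and 7 UMIs. In the subcluster with C6, Ccl8 and Clec10a it was at 234 CPM in MI-NS and 161 CPM in Sham-NS. The intervals of the ratios included 0 in each subcluster, and the part of the subcluster make-up in the class ratio was not tested. Vascular endothelial-like nuclei had the same order, 49.0 CPM in MI-DAPA, 59.1 CPM in MI-NS and 37.0 CPM in Sham-NS. In fibroblast-like nuclei Cyba was at 21.7 CPM in MI-DAPA, 38.1 CPM in MI-NS and 30.6 CPM in Sham-NS, and the ratio of MI-DAPA over MI-NS was -0.79 (-1.55 to -0.12). On chromosome 8, Cyba overlaps the annotated gene Gm20388 on the other strand, and whether strand was used in counting is not given in the sources used here.

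The dismutases were lower in MI-DAPA than in MI-NS in all 9 classes, though mostly on few UMIs. Sod2 in cardiomyocyte-like nuclei was at 39.1 CPM in MI-DAPA, 56.6 CPM in MI-NS and 44.8 CPM in Sham-NS, from 144, 123 and 180 UMIs. MI-NS was the highest, and its ratio over Sham-NS was 0.34 (-0.00 to 0.68), or 0.11 with TMM. The ratio of MI-DAPA over MI-NS was -0.54 (-0.89 to -0.18), or -0.27 with TMM. In vascular endothelial-like nuclei Sod2 was at 15.3 CPM in MI-DAPA, 49.0 CPM in MI-NS and 22.4 CPM in Sham-NS. Here MI-NS was more than 2-fold above Sham-NS, with a ratio of 1.12 (0.35 to 1.93) on 34 and 26 UMIs. This ratio was 0.90 with TMM, 0.91 with mixed clusters kept and 0.71 with class by marker level, all under 2-fold. At the finer resolution of 2.0 the vascular endothelial-like nuclei also split by library. A cluster with Flt1 and Car4 among its leading genes held 254 nuclei of MI-DAPA, 100 of MI-NS and 1212 of Sham-NS, and one with Kdr and Kit held 526, 618 and 116. Sod2 was at 50.5 CPM in MI-NS and 21.0 CPM in Sham-NS in the Car4-led cluster, and at 47.0 CPM in MI-NS and 23.6 CPM in Sham-NS in the Kdr-led one, each ratio with 3 UMIs or fewer in 1 library and an interval including 0.

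Sod3, the dismutase secreted into the extracellular space, was highest in smooth muscle-like nuclei on only 7 UMIs and had 82 of its 154 UMIs in fibroblast-like nuclei. There it was at 11.8 CPM in MI-DAPA, 26.1 CPM in MI-NS and 17.2 CPM in Sham-NS, from 13, 46 and 23 UMIs. MI-DAPA was lowest, with a ratio over MI-NS of -1.11 (-2.17 to -0.24), which was -0.95 with class by marker level. The intervals of MI-DAPA and Sham-NS overlap, and Sod3 was under the 50 UMI mark for that pair.

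Catalase, which splits hydrogen peroxide in peroxisomes, was higher in MI-NS than Sham-NS in cardiomyocyte-like and lower in fibroblast-like nuclei, a difference between classes that was not tested. Cat in cardiomyocyte-like nuclei was at 44.3 CPM in MI-DAPA, 96.2 CPM in MI-NS and 62.9 CPM in Sham-NS, from 163, 209 and 253 UMIs. The 3 counting intervals do not overlap, and MI-DAPA lay below the sham library. The ratio was 0.61 (0.34 to 0.88) for MI-NS over Sham-NS and -1.12 (-1.43 to -0.82) for MI-DAPA over MI-NS, and -0.51 (-0.80 to -0.22) for MI-DAPA over Sham-NS. With TMM the first was 0.38 and the second -0.86, under 2-fold. Within the main cardiomyocyte-like cluster, of 1240, 738 and 1413 nuclei, Cat was at 44.1 CPM in MI-DAPA, 94.4 CPM in MI-NS and 61.4 CPM in Sham-NS. A cluster led by Myh7, Ankrd1 and Nppa, genes of the stressed ventricle, held 60 nuclei of MI-DAPA, 186 of MI-NS and 1 of Sham-NS. There Cat was at 53.7 CPM in MI-DAPA and 109 CPM in MI-NS, so the difference between these libraries was present in both clusters. At resolution 2.0 the cardiomyocyte-like nuclei outside the Myh7-led cluster split further, with 366 nuclei of MI-DAPA, 82 of MI-NS and 948 of Sham-NS in one cluster, 610, 546 and 83 in another, and 400, 163 and 588 in one more. The ratio of MI-DAPA over MI-NS for Cat was -1.31 (-2.02 to -0.51) in the first, -1.10 (-1.53 to -0.68) in the second and -1.54 (-2.72 to -0.36) in the last. The ratio of MI-NS over Sham-NS was 1.32 (0.58 to 1.94) in the first but 0.15 (-0.51 to 0.95) in the second and 0.19 (-0.80 to 1.01) in the last. In fibroblast-like nuclei Cat was at 30.8 CPM in MI-DAPA, 25.0 CPM in MI-NS and 41.8 CPM in Sham-NS, with a ratio of MI-NS over Sham-NS of -0.74 (-1.35 to -0.15), or -0.14 with class by marker level.

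Gpx3 was lower in MI-DAPA than in MI-NS in all 9 classes, with the interval of the ratio below 0 in 4 of them. It was measurable for this pair in only 2 classes, the fibroblast-like and the cardiomyocyte-like. In fibroblast-like nuclei, its main source, it was at 56.98 CPM in MI-DAPA, 100.5 CPM in MI-NS and 142 CPM in Sham-NS, from 63, 177 and 190 UMIs. Both infarct libraries were below the sham library, and MI-DAPA was the lowest. The ratio was -0.50 (-0.80 to -0.19) for MI-NS over Sham-NS, -0.81 (-1.26 to -0.40) for MI-DAPA over MI-NS and -1.31 (-1.75 to -0.90) for MI-DAPA over Sham-NS.

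The fibroblast-like clusters split the Gpx3 result. In the Comp-led cluster it was at 16.6 CPM in MI-DAPA and 53.0 CPM in MI-NS, with a ratio of -1.59 (-3.05 to -0.55). In the Vcan-led cluster it was at 77.0 CPM in MI-DAPA, 186 CPM in MI-NS and 58.4 CPM in Sham-NS, the last from 6 UMIs. In the Dpep1-led cluster it was at 98.9 CPM in MI-DAPA and 150.1 CPM in Sham-NS. MI-DAPA was thus below MI-NS inside both clusters that held at least 50 nuclei of each, while the lower class level of MI-NS against Sham-NS turned round inside the Vcan-led cluster. Without the Comp-led cluster the class ratio of MI-NS over Sham-NS was 0.45, the other way from the whole class.

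In cardiomyocyte-like nuclei Gpx3 was at 3.26 CPM in MI-DAPA, 29.9 CPM in MI-NS and 9.70 CPM in Sham-NS, from 12, 65 and 39 UMIs. MI-NS stood above both other libraries, with a ratio over Sham-NS of 1.62 (1.03 to 2.24), and MI-DAPA over MI-NS was -3.15 (-4.22 to -2.30). Much of this level in MI-NS came from the Myh7-led cluster, at 78.4 CPM from 36 UMIs. The same cluster of MI-DAPA had 0 UMIs, which allows up to 13.4 CPM, and the interval of the log2 ratio of MI-DAPA over MI-NS ended at -2.17. In the main cluster it was at 3.00 CPM in MI-DAPA, 16.8 CPM in MI-NS and 7.88 CPM in Sham-NS. Without the Myh7-led cluster the class ratios were 0.84 for MI-NS over Sham-NS, under 2-fold, and -2.25 for MI-DAPA over MI-NS.

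In the other classes Gpx3 rested on 30 UMIs or fewer per library. Vascular endothelial-like nuclei had 6.13 CPM in MI-DAPA, 43.2 CPM in MI-NS and 25.8 CPM in Sham-NS. Macrophage-like nuclei had 4.33 CPM in MI-DAPA, 35.8 CPM in MI-NS and 26.6 CPM in Sham-NS. Fibroblast and mesothelial markers were also highest in MI-NS in each of the 9 classes. The 5 fibroblast markers summed to 54.9 CPM in MI-DAPA, 246 CPM in MI-NS and 33.1 CPM in Sham-NS cardiomyocyte-like nuclei, and to 290 CPM, 969 CPM and 122 CPM in macrophage-like nuclei of the same libraries. None of the 5 was at 0 in any of these. The 8 mesothelial markers summed to 0.81 CPM in MI-DAPA, 18.4 CPM in MI-NS and 1.24 CPM in Sham-NS cardiomyocyte-like nuclei, with 6, 0 and 6 of them at 0. Their part in the Gpx3 levels of these classes was not tested.

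Nfe2l2 was the member with the most UMIs, 2191 in named classes, and showed a shared order over classes. Cardiomyocyte-like nuclei had 111 CPM in MI-DAPA, 97.1 CPM in MI-NS and 152 CPM in Sham-NS, from 410, 211 and 610 UMIs. Fibroblast-like nuclei had 74.2 CPM in MI-DAPA, 55.1 CPM in MI-NS and 97.0 CPM in Sham-NS. Vascular endothelial-like nuclei had 99.6 CPM in MI-DAPA, 69.1 CPM in MI-NS and 108 CPM in Sham-NS. In each of these classes MI-NS was lowest and MI-DAPA lay between the others. MI-NS was below Sham-NS in 8 of 9 classes, the lymphatic endothelial-like class being the exception, and MI-DAPA was above MI-NS in 9 of 9. The 8 include the macrophage-like class, with 115.6 CPM in MI-NS and 115.9 CPM in Sham-NS. The order was not the same throughout, since MI-DAPA was the highest library in the macrophage-like, cycling and lymphatic endothelial-like classes.

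In the fibroblast-like clusters Nfe2l2 was at 54.5 CPM in MI-DAPA and 53.0 CPM in MI-NS in the Comp-led one, and at 92.1 CPM in MI-DAPA, 60.4 CPM in MI-NS and 87.5 CPM in Sham-NS in the Vcan-led one. The intervals overlapped within each cluster, and the level in the Dpep1-led cluster was 65.9 CPM in MI-DAPA and 98.7 CPM in Sham-NS.

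The ratio of MI-NS over Sham-NS for Nfe2l2 was -0.64 (-0.88 to -0.42) in cardiomyocyte-like nuclei, -0.81 (-1.21 to -0.43) in fibroblast-like nuclei and -0.64 (-1.16 to -0.16) in vascular endothelial-like nuclei. All 3 are under 2-fold, with intervals below 0. In thinned nuclei, which left 6 and 5 UMIs in the vascular endothelial-like class, that value was 0.14. Inside the endothelial clusters of resolution 2.0 given above, Nfe2l2 was at 151 CPM in MI-NS and 108 CPM in Sham-NS in the Car4-led one, from 9 and 87 UMIs, and at 53.4 CPM in MI-NS and 94.3 CPM in Sham-NS in the Kdr-led one, from 25 and 8 UMIs. The ratios were 0.56 (-0.68 to 1.48) and -0.88 (-2.01 to 0.54), so the direction differed between them and neither was resolved. In the 3 cardiomyocyte-like clusters of resolution 2.0 given for Cat the ratio was -0.36 (-1.19 to 0.30), -0.91 (-1.39 to -0.39) and -0.85 (-1.77 to -0.12), in the same order. In endocardial-like nuclei it was -1.61 (-3.23 to -0.47) on 6 and 45 UMIs, and -0.48 with class by marker level or -0.56 in thinned nuclei. The ratio of MI-DAPA over MI-NS was 0.20 (-0.05 to 0.44), 0.43 (-0.01 to 0.87) and 0.52 (-0.03 to 1.10) in the cardiomyocyte-, fibroblast- and vascular endothelial-like classes. Each of these intervals includes 0, so the higher level in MI-DAPA was not resolved in any single class, and the last was -1.17 in thinned nuclei, on 1 and 6 UMIs. With TMM the cardiomyocyte-like value was 0.46. In macrophage-like nuclei, Nfe2l2 was at 156 CPM in MI-DAPA and at 116 CPM in both MI-NS and Sham-NS, with overlapping intervals.

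Txnrd1 in cardiomyocyte-like nuclei was at 27.2 CPM in MI-DAPA, 46.5 CPM in MI-NS and 38.8 CPM in Sham-NS, from 100, 101 and 156 UMIs. By level MI-NS was thus highest for Txnrd1 and lowest for Nfe2l2, but its Txnrd1 level was not resolved from that of Sham-NS. The Txnrd1 ratio was 0.26 (-0.12 to 0.63) for MI-NS over Sham-NS and -0.78 (-1.19 to -0.36) for MI-DAPA over MI-NS. In fibroblast-like nuclei Txnrd1 was at 37.1 CPM in MI-DAPA, 40.3 CPM in MI-NS and 38.8 CPM in Sham-NS, with a ratio of MI-NS over Sham-NS of 0.05 (-0.48 to 0.60). Txnrd1 overlaps Eid3 on its own strand on chromosome 10, and reads from the shared part cannot be told apart.

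Hmox1, the haem oxygenase that breaks down haem, was sparse in these nuclei. Its 44 UMIs in named classes included 21 in macrophage-like nuclei, where it was at 8.66 CPM in MI-DAPA, 17.9 CPM in MI-NS and 15.2 CPM in Sham-NS, from 2, 11 and 8 UMIs. No difference was detectable at this depth. In fibroblast-like nuclei it had 0 UMIs in MI-DAPA, 7 in MI-NS and 0 in Sham-NS, and the counts of 0 allow up to 2.71 CPM in MI-DAPA and 2.24 CPM in Sham-NS. Of the 21 macrophage-like UMIs, 13 came from the subcluster with C6, Ccl8 and Clec10a, where Hmox1 was at 53.1 CPM (MI-NS, 10 UMIs) and 26.8 CPM (Sham-NS, 3 UMIs).

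The wider pathway was read from 7 lists holding 117 genes of the feature list, in which the 10 genes are included. In fibroblast-like nuclei the other oxidant sources (oxidases outside the NADPH oxidase family) had 0 of 5 measurable genes at least 2-fold higher and 2 lower in MI-NS than in Sham-NS, with a median log2 ratio of -0.51 against 0.11 over all measurable genes. Of all 8401 measurable genes, 8.86% were at least 2-fold higher and 4.02% lower in this comparison. Xdh, the xanthine dehydrogenase that can act as an oxidase, was at 374 CPM in MI-NS and 1406 CPM in Sham-NS, a ratio of -1.91 (-2.04 to -1.78). It was also lower in vascular endothelial-like nuclei, at 657 CPM in MI-NS and 2184 CPM in Sham-NS. Inside the endothelial clusters of resolution 2.0 its ratio was -1.21 (-1.60 to -0.86) in the Car4-led one and -0.55 (-0.92 to -0.15) in the Kdr-led one, and -1.22 and -1.66 in a pair of smaller clusters. Aox1, an aldehyde oxidase, was at 64.8 CPM in MI-NS and 337 CPM in Sham-NS fibroblast-like nuclei, with -2.38 (-2.69 to -2.08). In MI-DAPA it stood at 130.2 CPM, above MI-NS by 1.01 (0.64 to 1.38), or 0.38 to 0.99 under 5 of the alternatives.

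The glutathione list in fibroblast-like nuclei had 0 of 8 measurable genes at least 2-fold higher and 3 lower in MI-NS than in Sham-NS, with a median of -0.86 against 0.11 over all genes. The shares over all genes were 8.86% higher and 4.02% lower. Ggt5, which breaks down extracellular glutathione conjugates, was at 26.1 CPM in MI-NS and 230.5 CPM in Sham-NS, a ratio of -3.13 (-3.62 to -2.69). It was at 88.6 CPM in MI-DAPA, 1.75 (1.24 to 2.30) above MI-NS. Gstm1, a glutathione transferase, was at 42.0 CPM in MI-NS and 172 CPM in Sham-NS. These fibroblast-like differences coincide with the change of clusters given above, and their part in the list medians was not tested. Without the Comp-led cluster the ratio of MI-NS over Sham-NS was -1.57 for Aox1, -2.07 for Ggt5 and -1.02 for Gstm1.

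In cardiomyocyte-like nuclei the list of superoxide and peroxide removal had 2 of 10 measurable genes higher and 0 lower in MI-NS than in Sham-NS, with a median of 0.48 against 0.14 over all genes, or 0.25 against -0.09 with TMM. Of all genes, 7.48% were higher and 2.17% lower. In MI-DAPA against MI-NS, 2 of 11 were at least 2-fold lower, against 4.94% of all genes. These were Cat and Gpx3, already counted above among the 10 genes. Of the 11, 10 had a ratio below 0, with a median of -0.54 against -0.17 over all genes. With TMM these were 10 of 11 and -0.27 against 0.10, and 1 gene passed 2-fold. The fibroblast-like nuclei gave 12 of 13 below 0 and 2 at least 2-fold lower in the same comparison, with a median of -0.45 against -0.04. The 2 were Sod3, already counted above, and Prdx1, where 3.12% of all genes were at least 2-fold lower. Besides Cat and Gpx3, which are in the list, Gpx4, the peroxidase of membrane lipids, was at 214 CPM in MI-NS and 105 CPM in Sham-NS cardiomyocyte-like nuclei. Its ratio of 1.02 (0.83 to 1.22) was 0.79 with TMM. In the thioredoxin list, Txnip, which binds and inhibits thioredoxin, was at 497 CPM in MI-NS and 125 CPM in Sham-NS cardiomyocyte-like nuclei, a ratio of 1.99 (1.84 to 2.14).

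The list of Nfe2l2 control and target genes held 19 measurable genes in cardiomyocyte-like nuclei, with a median equal to that of all genes at 0.14 in MI-NS over Sham-NS. Of the 19, 1 was at least 2-fold higher and 1 lower in MI-NS, against 7.48% and 2.17% of all genes. The higher one was Nqo1, a quinone reductase and classical target, at 21.2 CPM in MI-NS and 7.46 CPM in Sham-NS. The lower one was Bach1, a repressor of the same elements, at 105 CPM in MI-NS and 214 CPM in Sham-NS. In MI-DAPA against MI-NS, 0 of 19 passed the 2-fold mark, against 5.4% of all genes, with a median of -0.12 against -0.17, or 0.14 against 0.10 with TMM.

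In macrophage-like nuclei the NADPH oxidase list had 7 measurable genes. Of these, 6 had a ratio above 0 in MI-NS over Sham-NS, with a median of 0.36 against 0.05 over all genes, and 7 had a ratio below 0 in MI-DAPA over MI-NS, with a median of -0.30 against 0.02. None reached 2-fold in either comparison, where 7.42% and 5.51% of all genes did. In the haem and iron list, Cd163, the scavenger receptor for haemoglobin, was at 316 CPM in MI-NS and 1193 CPM in Sham-NS macrophage-like nuclei, a ratio of -1.92 (-2.16 to -1.68). For Cd163 this ratio was -0.96 in thinned nuclei, of which MI-NS kept 90 and Sham-NS 54. Within the subclusters, whose shares differed between the libraries, its ratio was -2.34 (-3.05 to -1.68) in the Gpnmb-led, -1.61 (-2.43 to -0.97) in the Ndufa5-led and -1.30 (-1.65 to -0.95) in the C6-led one. Cd163 was also 1 of the 12 markers by which macrophage-like clusters were named. Slc40a1, the iron exporter, was at 42.3 CPM in MI-NS and 110.2 CPM in Sham-NS, a ratio of -1.37 that was -0.27 with class by marker level.

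**Figure D4:**
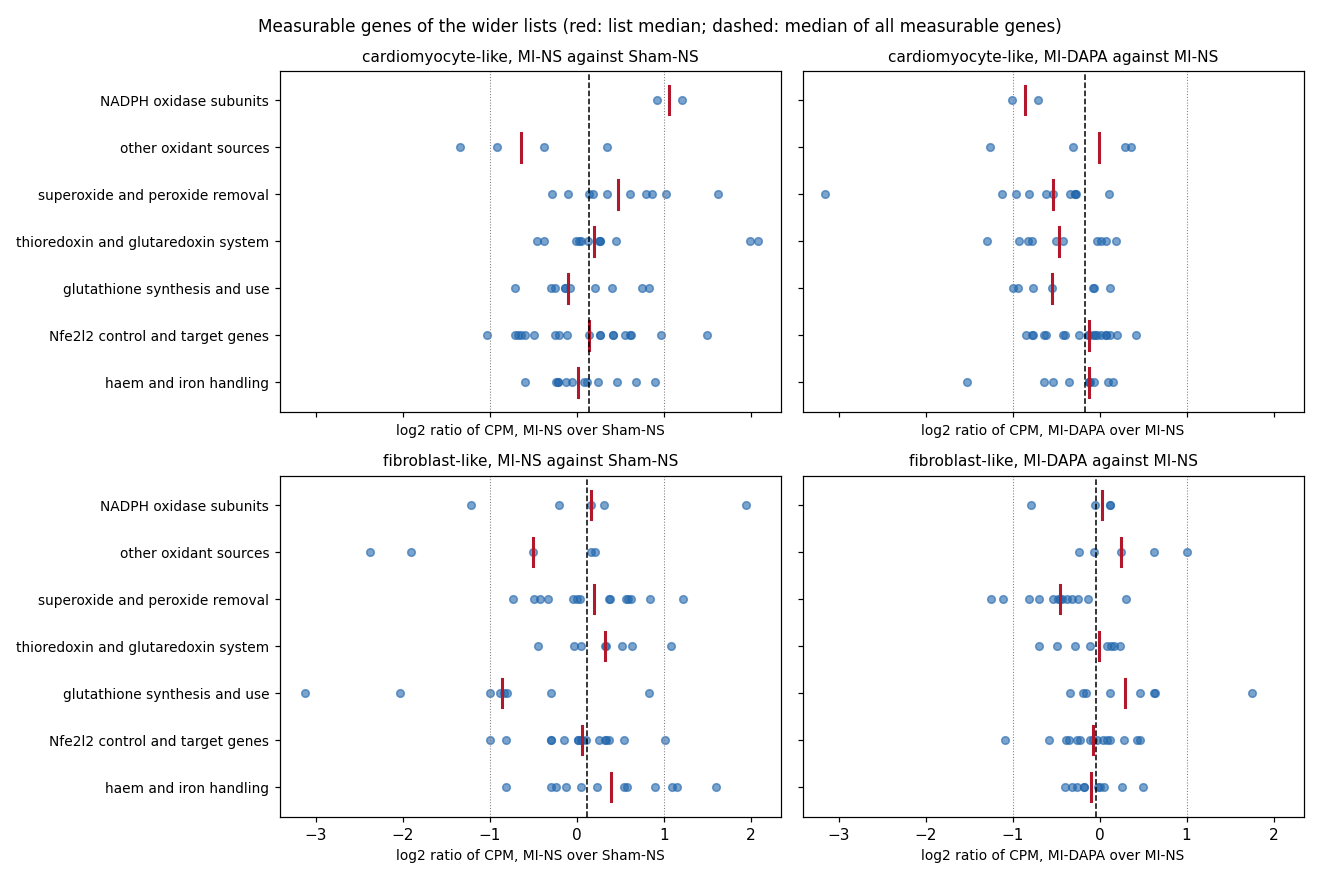
Log2 ratios of CPM (horizontal axes) for each measurable gene (points) of the 7 lists (rows) in cardiomyocyte-like nuclei (top) and fibroblast-like nuclei (bottom), with MI-NS over Sham-NS on the left and MI-DAPA over MI-NS on the right. Red bars are list medians, dashed lines the median of all measurable genes and dotted lines a 2-fold difference; on the right, superoxide and peroxide removal has a median of -0.54 in cardiomyocyte-like and -0.45 in fibroblast-like nuclei.

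The genes most like each member over 31 levels, in 13 classes and up to 3 libraries, were found by Pearson's correlation of log2(CPM + 10) among 8246 genes. This is a description, since levels of 1 library share its free RNA and depth. Nox4 was most like Vcan (0.85), Col5a2 (0.85) and Pmepa1 (0.85), the first 2 of which encode matrix proteins. Cybb was most like Pirb (0.93), Hpgds (0.92) and Ms4a6b (0.90). Gpx3 was most like Dcn (0.82), which encodes the matrix proteoglycan decorin, followed by Sh3d19 (0.78) and C3 (0.77). For Cyba the nearest was Arrb2 (0.87), and for Nfe2l2 it was Kif16b (0.78). Hmox1 and Sod3 were too sparse for their likeness to be read.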

How the data were processed

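The authors deposited matrices of UMI counts per gene and barcode, made with Cell Ranger 6.0.1 per the file headers, on mm10 per the submitters' processing notes, which also name Seurat. Whether intronic reads and strand were counted is not given in the sources used here. Nuclei with at least 300 genes and at most 10% mitochondrial UMIs were kept. Scrublet (scanpy 1.11.5) called 2, 1 and 0 doublets in MI-DAPA, MI-NS and Sham-NS and had not worked, so whole clusters were removed as mixed where the median score passed 0.1 (10.4%, 11.4% and 15.5% of nuclei). Clustering used log counts per 10000 of 4241 variable genes, without the 10 genes and the wider lists, 30 components, 15 neighbours and Leiden (leidenalg 0.10.2, resolution 1.0, no batch correction). A cluster was named when at least 3 markers of 1 of 21 sets were 2-fold above the median cluster, with 10 CPM added.

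UMIs were summed per class and library. Levels have exact Poisson intervals, and ratios, with 0.5 UMI added to each sum, exact conditional binomial intervals. A count of 0 was read as up to 3 counts, which is under the upper end of its exact Poisson interval. No test was possible with 1 library per group. The members, lists and markers were chosen with earlier results of these data known. Of each list, class and comparison up to 4 further genes with the largest ratio past 2-fold qualified for naming, of which the text gives examples. Interval coverage was tested on counts simulated with the Poisson model that the intervals assume. That test cannot speak to spread between nuclei, mice or libraries. Alternatives were TMM factors (edgeR 4.0.16), a total without mitochondrial genes, a stricter filter (at least 500 genes, at most 5% mitochondrial), class by marker level, resolution 2.0, mixed clusters kept, thinning to 1000 UMIs, list genes in the clustering, other UMI minimums, and, added after the data were seen, classes without the Comp-led and Myh7-led clusters or the collagen-led macrophage subcluster. Thinning left out every nucleus with under 1000 UMIs, which removed most fibroblast-, vascular endothelial- and macrophage-like nuclei. Values in thinned nuclei therefore differ from the others in nuclei as well as in depth.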

Additional observations from a re-analysis of the deposited data

Results flagged for a closer look

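Catalase and Gpx3 had intervals on opposite sides of 0 in 2 cell classes under the same comparison, MI-NS against Sham-NS. For Cat the log2 ratio was 0.61 in cardiomyocyte-like nuclei and -0.74 in fibroblast-like nuclei. For Gpx3 it was 1.62 in cardiomyocyte-like nuclei and -0.50 in fibroblast-like nuclei. The fibroblast-like Gpx3 ratio was 1.57 (0.51 to 3.15) inside the Vcan-led cluster and turned round without the Comp-led cluster. The fibroblast-like Cat ratio was smaller with class by marker level. Without the Myh7-led cluster the cardiomyocyte-like Gpx3 ratio was under 2-fold. Fibroblast and mesothelial markers were also highest in MI-NS in cardiomyocyte-like nuclei, and their part was not tested. The difference between the classes was not tested, since each group is 1 library.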

How the results depend on the processing

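No paired analysis was possible because each group is 1 library, and no library could be left out in turn for the same reason. Of the 14 ratios in a gene's leading class, the value stayed inside the counting interval in all 14 at resolution 2.0, with mixed clusters kept, without mitochondrial genes and with list genes in the clustering. Of the 29 other ratios of the 10 genes, outside a leading class, 13 moved in thinned nuclei, 3 with class by marker level, 2 under the stricter filter and 0 in the other planned settings. Of the 5 past 2-fold among them, 2 stayed past it with class by marker level, 4 with TMM, 4 with mixed clusters kept and 4 in thinned nuclei. Without the Comp-led and Myh7-led clusters 2 of 16 moved and 2 of 3 stayed past 2-fold, and without the collagen-led macrophage subcluster none of the 6 macrophage-like ratios moved. Other settings moved some of the leading-class ratios. The stricter filter gave 1.17 for Nox4 in MI-NS over Sham-NS and 0.58 in MI-DAPA over MI-NS, and 0.52 for Cybb in MI-NS over Sham-NS. Thinned nuclei gave 1.59 and 0.46 for the same Nox4 ratios and 0.36 for Cybb in MI-DAPA over MI-NS. Class by marker level gave 0.40 for Nox4 and -1.32 for Cybb in MI-DAPA over MI-NS. TMM gave 0.46 for Nfe2l2 in cardiomyocyte-like nuclei in MI-DAPA over MI-NS. Without the Comp-led cluster, MI-NS over Sham-NS was 0.55 for Nox4 and 0.45 for Gpx3. The causes of the moves under the stricter filter, thinning and marker level were not tested. Of the wider lists' 36 ratios past 2-fold, 28 stayed past it with TMM, 20 with class by marker level, 25 in thinned nuclei, 26 under the stricter filter and 17 of 27 without the Comp-led and Myh7-led clusters. Duox1 in fibroblast-like nuclei, at -1.21 in MI-NS over Sham-NS, was 0.22 without the Comp-led cluster, and Taldo1, at 1.02, was -0.34 in thinned nuclei.

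The count of all genes past 2-fold depends on the UMI minimum. With 200, 50 and 10 UMIs, MI-NS against Sham-NS gave 241, 801 and 2124 genes for cardiomyocyte-like nuclei, 363, 1082 and 2357 for fibroblast-like, 115, 544 and 1837 for vascular endothelial-like and 56, 349 and 1580 for macrophage-like nuclei. MI-DAPA against MI-NS gave 59, 439 and 1627, then 65, 347 and 1284, then 15, 225 and 1273, then 26, 207 and 1528 in the same classes. Depth limits Hmox1, Sod3 and the smaller classes, in which 1 of the 10 genes reached 50 UMIs in 1 class (Nfe2l2, endocardial-like).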
